A study of Mus musculus with 19 samples.

Results

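A set of 10 neuropeptide and secretogranin genes was followed in cultured mouse hippocampal neurons kept for 6 h with an NMDA receptor antagonist or with vehicle. The genes were Scg2, Cck, Sst, Cort, Npy, Tac1, Penk, Pdyn, Adcyap1 and Vip, chosen by gene name, and they make up 10 of the 27573 gene names on the array and 14 of its 41174 probes. Penk appears in the files under its older name Penk1 and was matched through its RefSeq accession. Every group held dissociated hippocampal neurons on day 21 of culture. Exposure lasted 6 h and was to vehicle on 5 arrays, to AP5 at 100 µM on 5, to NVP at 100 nM on 4, and to a compound titled Ro25 at 1 µM on 5. AP5 is a competitive antagonist of NMDA receptors, and NVP is an antagonist that favours GluN2A-containing receptors to some degree. The number in the longer name given for Ro25 is not that of the widely used GluN2B antagonist with this prefix, so its identity is not settled here. The doses of the 3 compounds differed, and their values stand side by side without dose matching. Each array carried neuron RNA in red (Cy5) and 1 universal mouse reference RNA in green (Cy3), and the dyes were not swapped. Whether the replicates were separate cultures is not given in the labels, and the p-values therefore reflect the spread among these arrays alone, part of which may be technical.

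Neuropeptides are made as larger precursors, sorted together with the granins into dense-core vesicles, cut there by prohormone convertases and released during sustained firing. They act on G protein-coupled receptors. In the hippocampus Sst, Npy, Cck, Vip and Cort are known as transcripts of inhibitory interneurons, while Penk, Pdyn, Tac1, Adcyap1 and Scg2 are known as activity-regulated precursors of opioid peptides, tachykinins, PACAP and secretoneurin. Several of these genes are textbook targets of CREB, a factor that binds the palindrome TGACGTCA in promoters.

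The start regions of 5 of the genes are printed here because 3 of them differed with AP5 and the other two, Adcyap1 and Cort, had the widest differences between channels and along the astrocyte signal described further on. Each sequence runs 5′ to 3′ on the strand of its gene, from 250 bases before to 50 bases after the start, from RefSeq on GRCm38.p6. Capitals mark TGACGTCA or its core TGACG, read on either strand (CGTCA on the other), and where a palindrome occurs both cores lie inside it.
Scg2: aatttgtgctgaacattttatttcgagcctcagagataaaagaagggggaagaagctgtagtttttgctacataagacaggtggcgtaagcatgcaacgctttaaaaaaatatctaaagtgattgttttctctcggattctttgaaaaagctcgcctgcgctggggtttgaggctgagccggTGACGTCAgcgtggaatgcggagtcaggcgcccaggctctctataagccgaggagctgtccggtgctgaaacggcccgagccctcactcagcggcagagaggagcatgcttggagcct
Sst: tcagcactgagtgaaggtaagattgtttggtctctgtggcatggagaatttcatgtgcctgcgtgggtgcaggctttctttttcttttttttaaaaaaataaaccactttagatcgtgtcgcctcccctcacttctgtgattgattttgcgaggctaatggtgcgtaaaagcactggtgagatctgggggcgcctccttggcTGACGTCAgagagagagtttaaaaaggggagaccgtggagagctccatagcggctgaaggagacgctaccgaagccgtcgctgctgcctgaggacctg
Cck: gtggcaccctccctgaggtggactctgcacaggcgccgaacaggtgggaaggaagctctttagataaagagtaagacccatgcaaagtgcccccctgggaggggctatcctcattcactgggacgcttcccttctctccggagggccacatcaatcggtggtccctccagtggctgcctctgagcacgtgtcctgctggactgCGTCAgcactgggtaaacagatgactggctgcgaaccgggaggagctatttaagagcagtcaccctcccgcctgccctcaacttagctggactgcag
Adcyap1: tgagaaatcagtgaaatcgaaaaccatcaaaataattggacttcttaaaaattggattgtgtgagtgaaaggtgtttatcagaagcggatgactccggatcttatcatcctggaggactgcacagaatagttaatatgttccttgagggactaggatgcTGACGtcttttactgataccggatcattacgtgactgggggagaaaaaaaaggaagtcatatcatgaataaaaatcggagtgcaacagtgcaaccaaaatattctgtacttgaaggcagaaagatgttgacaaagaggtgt
Cort: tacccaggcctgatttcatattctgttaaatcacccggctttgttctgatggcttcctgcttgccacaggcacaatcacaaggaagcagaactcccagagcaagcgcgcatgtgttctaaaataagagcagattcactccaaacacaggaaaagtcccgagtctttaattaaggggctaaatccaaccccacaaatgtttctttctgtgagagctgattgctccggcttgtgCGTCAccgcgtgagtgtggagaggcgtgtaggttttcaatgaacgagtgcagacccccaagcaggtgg
The windows lie at chr1:79439977-79440276 for Scg2, chr16:23890795-23891094 for Sst, chr9:121495645-121495944 for Cck and chr4:149126714-149127013 for Cort, all on the minus strand. That of Adcyap1 lies at chr17:93198767-93199066 on the plus strand, and a second start of Adcyap1 lies at chr17:93198918-93199217. RefSeq starts were found for 9 of the 10 genes. The palindrome was found in 2 of these 9, 68 bases before the start of Scg2 and 48 before that of Sst, and in 1.79% of all 32851 start regions of 300 bases. The core was found in 7 of the 9 (also in Cck, Cort, Tac1, Adcyap1 and Vip) and in 20.8% of all start regions. A match describes these letters and is not evidence of binding.

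Red was well above background on all 19 arrays for the probes used for 8 of the genes. Pdyn reached this on 18 arrays, and its vehicle 5 spot was marked as an outlier and left out. Vip reached it on 6 arrays in red and on 0 in green, so its values lie near the detection limit. The arrays had median red signals between 135.5 and 177.8. AP5 and vehicle arrays shared no slide: AP5 1 to 4 were on slide 1 and AP5 5 on slide 2, while vehicle 2 was on slide 4 and the other vehicle arrays on slide 5. As a check that AP5 acted, Bdnf, a known NMDA receptor-dependent transcript, was lower with AP5 by a log2 fold change of -1.79 (SE 0.13, limma adjusted p = 6.01e-08).

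Against vehicle, AP5 gave higher neuron-over-reference ratios for Cck, Scg2 and Sst, by 1.27 to 1.44 times, and the other 7 genes did not pass the test. These 3 genes encode cholecystokinin, the granin that yields secretoneurin, and somatostatin. The count of 3 genes called of 10 tested, all 3 of them higher, stands beside 18% of all 19195 genes called in the same comparison and 10.8% called higher (limma, Benjamini-Hochberg adjusted p under 0.05 over all genes). The median log2 fold change of the 10 genes was 0.26, against 0.01 over all genes. In whole cultures, more cells of a type and more RNA per cell cannot be told apart.

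Cck had the largest of these changes. Its log2 ratios were 5.6, 6.04, 5.91, 5.75 and 5.75 on vehicle arrays 1 to 5 and 6.36, 6.43, 6.36, 6.50 and 6.02 on AP5 arrays 1 to 5. The 4 AP5 arrays of slide 1 lay above every vehicle array, whereas AP5 5, on slide 2, lay just below vehicle 2. The log2 fold change was 0.53 (SE 0.08, 95% confidence interval 0.35 to 0.70, adjusted p = 0.000317), which is 1.44-fold. A second, dimmer Cck probe, at chr9:121342094-121342153 on mm8 against chr9:121338611-121338670 for the first, gave 0.02 (interval -0.09 to 0.13). Its signals were near background, with green well above it on 10 arrays, so this flat value says little about the first probe.

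Scg2, measured by a probe at chr1:79314468-79314527 (mm8), had log2 ratios of 4.12, 4.72, 4.59, 4.43 and 4.16 with vehicle and 4.94, 4.66, 4.69, 4.72 and 4.84 with AP5. All AP5 arrays were above 4 of the vehicle arrays, and vehicle 2 lay within the AP5 range. The log2 fold change was 0.37 (SE 0.11, adjusted p = 0.0314), and it no longer passed when any 1 of AP5 1, AP5 5, vehicle 1 or vehicle 5 was left out, at 0.30 to 0.35 with adjusted p from 0.0605 to 0.0942.

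Sst is spotted 10 times on each array, and its spots were averaged. Its log2 ratios were 3.07, 3.45, 3.28, 3.20 and 3.22 with vehicle and 3.59, 3.52, 3.58, 3.67 and 3.56 with AP5. Sst was the only one of the 10 genes whose vehicle and AP5 arrays did not overlap, which was so for 11.9% of all genes. The log2 fold change was 0.34 (SE 0.06, adjusted p = 0.000627).

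**Figure D1:**
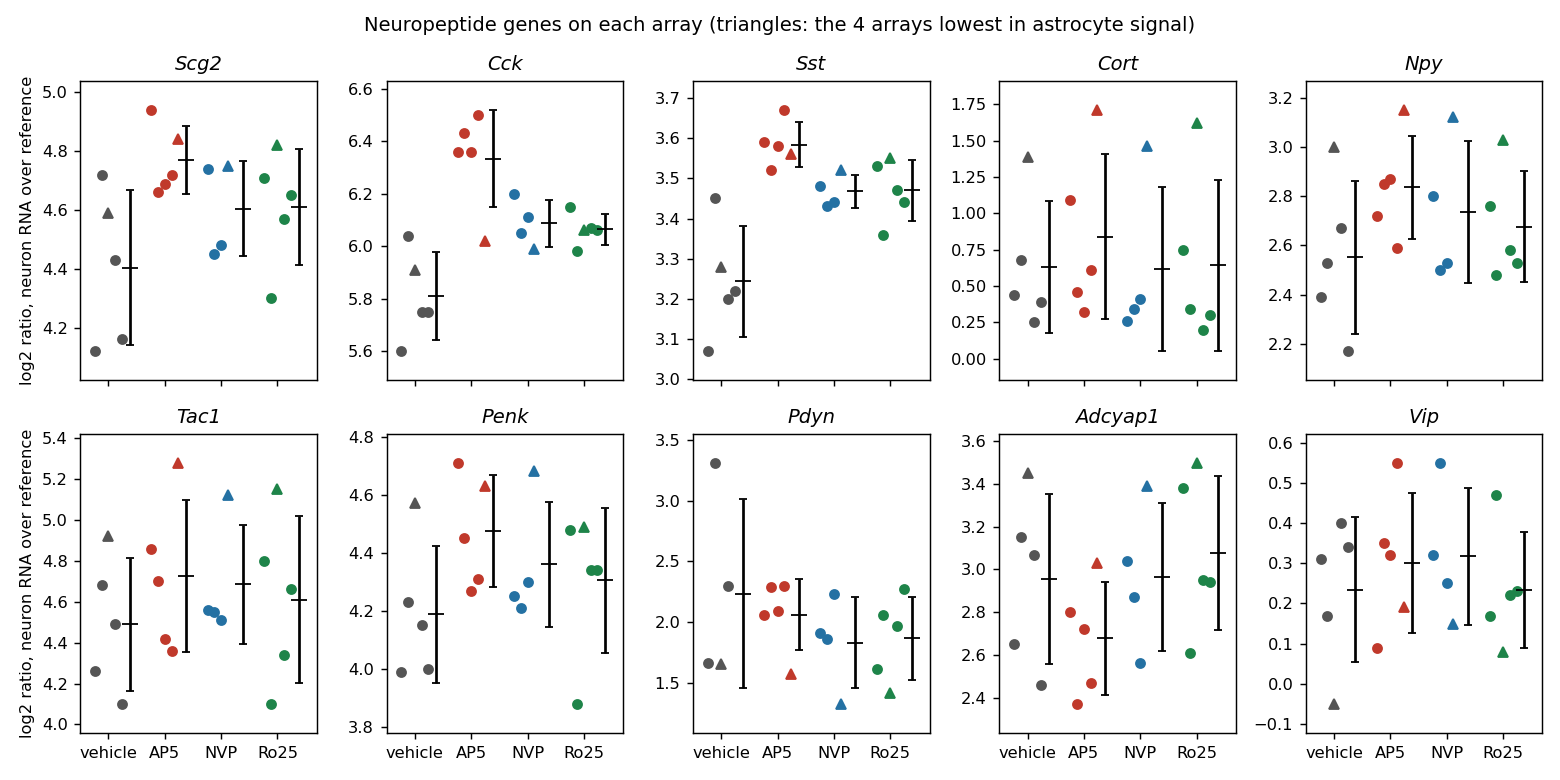
Log2 ratio of neuron RNA over reference RNA (vertical axes, which do not start at 0 and differ between panels) for each of the 10 genes on every array, by treatment; points are arrays, bars the mean and SD, and triangles the 4 arrays lowest in astrocyte signal. The 5 AP5 arrays of Sst lie above the 5 vehicle arrays, 4 of 5 do so for Cck, and for Cort, Npy, Tac1 and Adcyap1 the triangles are the highest points of every group.

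These 3 rises were seen in the ratio and not in the neuron channel taken alone. In the green channel, which held the same reference RNA on every array, the probes of Cck, Sst and Scg2 were dimmer on AP5 arrays than on vehicle arrays, by log2 differences of -0.65, -0.55 and -0.34 (adjusted p = 0.0409, 0.00591 and 0.00157; 5.26% of all genes were called in this channel). In the red channel alone the differences were -0.20 for Cck, -0.29 for Sst and -0.26 for Scg2 (adjusted p = 0.651, 0.15 and 0.105). Each channel was normalized between arrays on its own, so the difference of the 2 channels is not the ratio. Of the 1074 genes with a mean log2 ratio over 3, as Cck, Sst and Scg2 have, 39.4% were called higher with AP5, and their median log2 fold change was 0.26. Log ratios over all kept probes were also more spread on AP5 arrays than on vehicle arrays. Their median absolute deviation was 1.01 to 1.08 on AP5 arrays and 0.86 to 0.99 on vehicle arrays, without overlap. With log ratios brought to 1 spread, none of the 3 rises was called. That scaling multiplied AP5 arrays by 0.92 to 1.17, vehicle arrays by 0.86 to 1.11 and NVP 3 by 1.5. It did not narrow AP5 arrays as a group relative to vehicle arrays, so the missing calls do not show what part the wider spread had. The parts of the reference channel and of this spread in these rises were not tested.

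The slides give a further limit. When slide entered the model as a fixed block, AP5 and vehicle were joined only through the NVP and Ro25 arrays, and the log2 fold change was -0.23 for Cck, 0.06 for Scg2 and 0.08 for Sst, and none of the 10 genes was called (adjusted p = 0.639, 0.964 and 0.891 for these 3). On slide 2, Cck stood at 6.02 on AP5 5 and at 6.16 on average on the 2 NVP arrays, while Scg2 (4.84 against 4.61) and Sst (3.56 against 3.46) were higher on AP5 5. On slide 4 it stood at 6.04 on vehicle 2 and at 6.03 on average on the 3 Ro25 arrays, Scg2 at 4.72 and 4.59, and Sst at 3.45 on both. With slide as a random block the 3 genes stayed called, at 0.55, 0.38 and 0.35, but the estimated correlation within slides was -0.0774. Slide and treatment cannot be fully told apart in this design.

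The neuronal markers that were called with AP5 were all higher, as the 3 genes were. Of 8 pan-neuronal markers 3 were called higher with AP5 and 0 lower, beside 10.8% and 7.18% of all genes. Their mean log2 ratio was 4.77 to 4.90 on AP5 arrays against 4.42 to 4.72 on vehicle arrays. Among all genes with a mean log2 ratio over 3, 39.4% were called higher with AP5. Among markers of inhibitory interneurons that are no peptide genes, 4 of 15 measured were called higher, and among excitatory neuron markers 3 of 12. Glial lists had calls too: 2 of 17 astrocyte markers (Slc1a2 and Mlc1) and 2 of 15 oligodendrocyte-lineage markers were called higher, and 3 of 11 microglia markers lower. The mean of the astrocyte markers ranged from 2.81 to 4.13 with AP5 and from 2.73 to 3.78 with vehicle, and the mean of the microglia markers from -2.30 to -2.09 and from -2.13 to -1.98. With the astrocyte signal as a covariate, a fit described further on, Cck, Scg2 and Sst stayed called. The part of these cell types in the rises was not tested otherwise.

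The other precursors did not pass the test with AP5. Adcyap1, which encodes PACAP, had the lowest fold change of the 10. Its log2 ratios were 2.65, 3.15, 3.45, 3.07 and 2.46 with vehicle and 2.80, 2.37, 2.72, 2.47 and 3.03 with AP5. The ratio gave a log2 fold change of -0.28 (interval -0.70 to 0.14, adjusted p = 0.367), and the groups overlapped. The red channel alone gave -1.10 (interval -1.69 to -0.51, adjusted p = 0.016; 10.9% of all genes were called in this channel), with red spot signals of 769, 670, 896, 581 and 1023 on AP5 arrays and 1048, 1344, 2283, 1566 and 1013 on vehicle arrays. The green signal of this probe was also lower, by a log2 difference of -0.48 (adjusted p = 0.00899). The ratio computed by the extraction software gave 0.53 instead (adjusted p = 0.0121), so no direction is settled for Adcyap1.

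**Figure D2:**
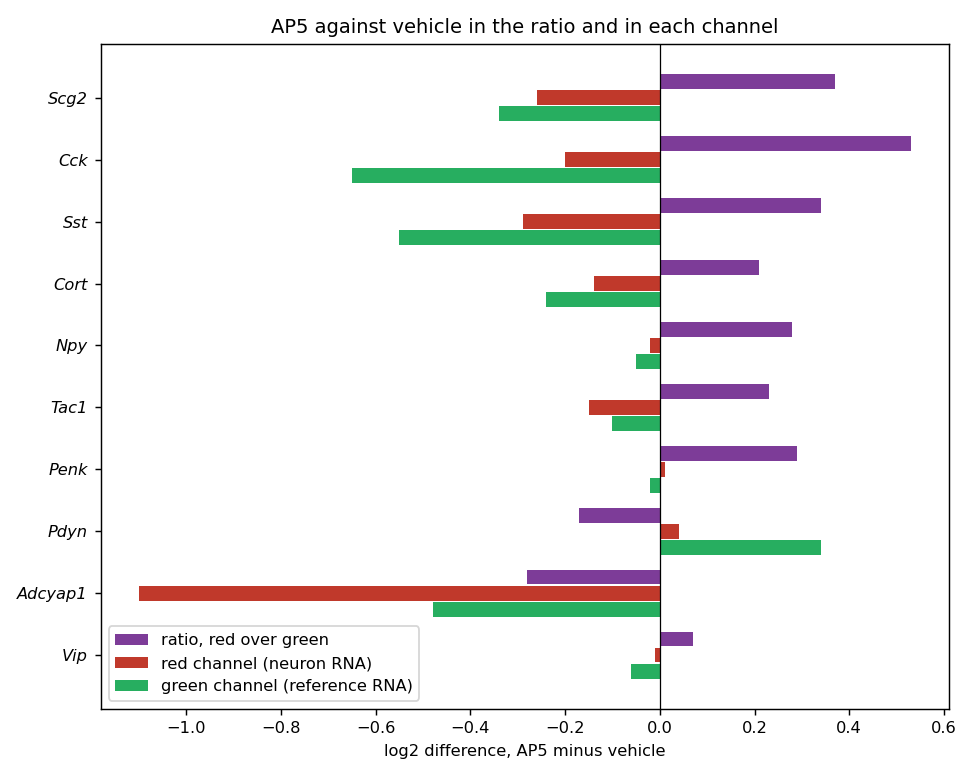
Log2 difference of AP5 minus vehicle (horizontal axis) for each of the 10 genes in the ratio and in the red and green channels, each normalized on its own; bars are differences of group means. For Scg2, Cck and Sst the ratio bar points to higher and both channel bars point to lower values, and for Adcyap1 all 3 bars point to lower values, the red one reaching -1.10.

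Penk, the precursor of the enkephalins, came closest among the rest. Its log2 ratios were 3.99, 4.23, 4.57, 4.15 and 4.00 with vehicle and 4.71, 4.45, 4.27, 4.31 and 4.63 with AP5. The log2 fold change was 0.29 (SE 0.13, adjusted p = 0.145), and a second Penk probe gave 0.24. Npy, which encodes neuropeptide Y, ran from 2.17 to 3.00 with vehicle and from 2.59 to 3.15 with AP5, with a log2 fold change of 0.28 (SE 0.15, adjusted p = 0.209). Tac1, the precursor of substance P, ran from 4.10 to 4.92 and from 4.36 to 5.28 (0.23, SE 0.20, adjusted p = 0.474). Its other 2 probes were at background in both channels. Cort, whose peptide cortistatin binds somatostatin receptors, ran from 0.25 to 1.39 and from 0.32 to 1.71 (0.21, SE 0.31, adjusted p = 0.705). With the astrocyte signal as a covariate, Cort at 0.38, Npy at 0.35 and Penk at 0.34 passed as well (adjusted p = 0.00736, 0.0104 and 0.0172), which brought the count to 6 of 10. The share of all genes called in that fit was not counted, so this count cannot be set beside it.

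Pdyn, the dynorphin precursor, had vehicle values of 1.67, 3.31, 1.66 and 2.30 on arrays 1 to 4, and its fit drops vehicle 5. Green was not well above background on vehicle 2, 3 and 4 (signals of 49, 51 and 51), so these ratios, the 3.31 included, rest on a reference signal near background. Vehicle 2 lay above all other arrays of every group, and AP5 arrays ran from 1.58 to 2.30. The log2 fold change was -0.17 (SE 0.28, adjusted p = 0.73) and turned to 0.19 without vehicle 2. Vip, the precursor of vasoactive intestinal peptide, ran from -0.05 to 0.40 with vehicle and from 0.09 to 0.55 with AP5 (0.07, SE 0.10, adjusted p = 0.707), at signals close to background.

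No gene of the 10 passed the same test with NVP or Ro25. For both compounds limma called 0 of 10 and also 0% of all genes against vehicle. At an unadjusted p under 0.05, 2 of the 10 passed with NVP and 2 with Ro25, Cck and Sst in both cases, beside 8.36% and 6.14% of all genes. NVP and Ro25 share the vehicle arrays, so these values are not independent of each other. Cck ratios were 6.20, 6.05, 6.11 and 5.99 with NVP and 6.15, 5.98, 6.06, 6.07 and 6.06 with Ro25, which placed both group means between those of vehicle and AP5, with overlap on both sides. The log2 fold changes of Cck were 0.28 (interval 0.09 to 0.47, adjusted p = 0.368) and 0.26 (0.08 to 0.43, adjusted p = 0.615). Those of Sst were 0.22 (0.09 to 0.35, adjusted p = 0.335) and 0.23 (0.10 to 0.35, adjusted p = 0.539). Scg2 gave 0.20 and 0.21, and Adcyap1 gave 0.01 and 0.12.

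**Figure D3:**
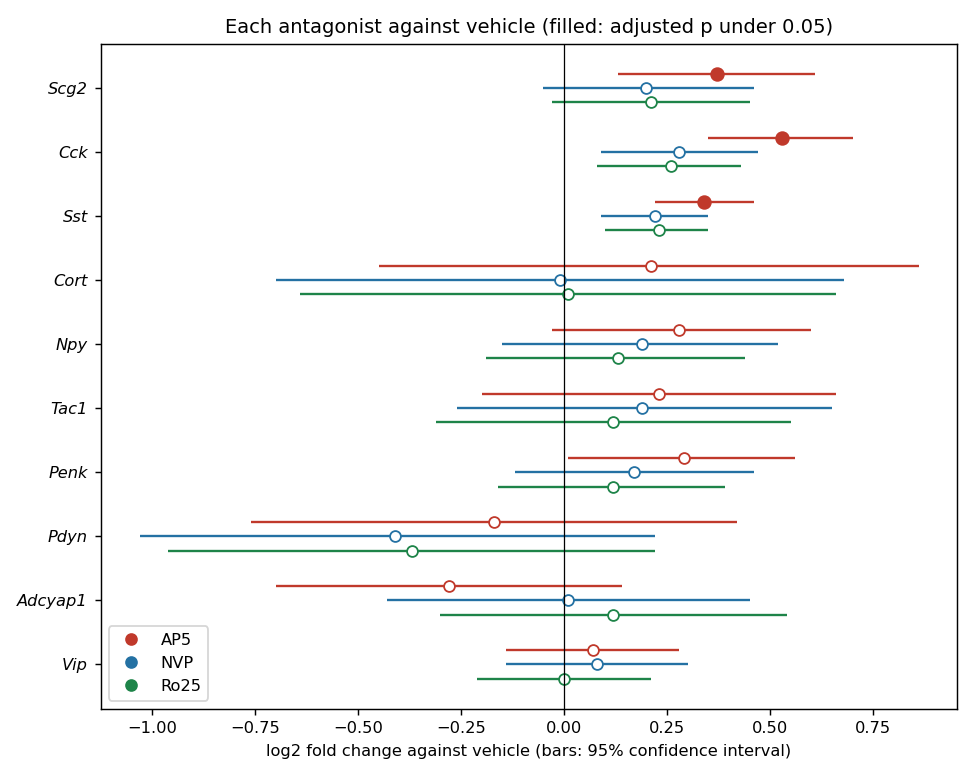
Log2 fold change of each gene against vehicle (horizontal axis) for AP5, NVP and Ro25, with 95% confidence intervals; filled points have an adjusted p under 0.05. Only Scg2, Cck and Sst with AP5 are filled, at 0.37, 0.53 and 0.34, and these changes are in the ratio, not in the red channel alone.

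Set directly against the other antagonists, AP5 gave no call for any of the 10 genes, while 4.25% of all genes were called against NVP and 6.05% against Ro25. The nearest was Cck, higher with AP5 than with Ro25 by 0.27 (interval 0.09 to 0.45, adjusted p = 0.0686) and than with NVP by 0.25 (0.06 to 0.44, adjusted p = 0.149). At an unadjusted p under 0.05 it was the 1 gene of the 10 to pass in each of these contrasts. Without AP5 5 the count became 1 in both contrasts. The AP5 and NVP arrays of Sst did not overlap (8.15% of all genes did not), with a difference of 0.12 (interval -0.01 to 0.25). Between NVP and Ro25 limma called 0 of the 10 genes and 0% of all genes, and 0 of the 10 had an unadjusted p under 0.05 (1.58% of all genes). Their difference for Cck was 0.02 (interval -0.17 to 0.21) and for Sst 0.00 (-0.14 to 0.13).

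Several of the 10 genes followed a difference between arrays that cut across the treatments. Astrocyte signal, the mean log2 ratio of 17 astrocyte markers, fell into separate clusters: AP5 5, NVP 4, Ro25 3 and vehicle 3, 1 array per group, had 2.65 to 2.81, and the other 15 arrays had 3.50 to 4.13. Cort stood at 1.71, 1.46, 1.62 and 1.39 on those 4 arrays and at 0.20 to 1.09 on the other 15, with no overlap. Tac1 stood at 5.28, 5.12, 5.15 and 4.92 against 4.10 to 4.86, and Npy at 3.15, 3.12, 3.03 and 3.00 against 2.17 to 2.87, again with no overlap. The share of all genes without overlap between these arrays was not counted, so the separation is not shown to be particular to these genes. A slope on astrocyte signal was called for 34.3% of all genes. Adcyap1 (3.03 to 3.50 against 2.37 to 3.38) and Penk (4.49 to 4.68 against 3.88 to 4.71) leaned the same way but overlapped. Pdyn lay low on those 4 arrays, at 1.58, 1.33, 1.42 and 1.66 against 1.62 to 3.31, with a slight overlap.

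A slope on astrocyte signal within treatment groups, fitted by limma over all 19 arrays, was called for 7 of the 10 genes, 2 positive and 5 negative, beside 34.3% of all genes (16.2% positive and 18.1% negative). Cort fell by 1.06 in log2 ratio per unit of astrocyte signal (SE 0.08, adjusted p = 5.7e-09), with slopes of -1.04, -1.07, -0.99 and -1.14 within vehicle, AP5, NVP and Ro25. Tac1 (-0.58), Adcyap1 (-0.56), Npy (-0.42) and Penk (-0.31) were also called lower, and Pdyn (0.58, with vehicle 5 dropped) and Vip (0.21) higher. Green was well above background for Vip on 0 arrays, and for Pdyn not on vehicle 2, 3 and 4. Without Ro25 3 and vehicle 3, Vip, Pdyn and Penk were not called (adjusted p = 0.248, 0.142 and 0.0868). Over the 15 arrays outside the low cluster, which span a narrower range of astrocyte signal, none of the 10 genes was called, while 8.3% of all genes were. There Cort had -0.83 (interval -1.43 to -0.24, adjusted p = 0.0825), Adcyap1 -0.78 (adjusted p = 0.215), whereas Tac1 had -0.22, Npy 0.01 and Pdyn 0.06. With log ratios brought to 1 spread, the slopes of Tac1 (0.44), Penk (0.52), Npy (0.19) and Adcyap1 (0.10) turned positive. In that fit the astrocyte signal was taken from the scaled ratios too. Each array's factor thus multiplied the gene and the signal alike, so these signs cannot decide the direction. Cort stayed negative at -0.30 (adjusted p = 0.0509). That scaling multiplied NVP 3 by 1.5 and the other arrays by 0.80 to 1.17. Over kept probes NVP 3 had a median absolute deviation of 0.95, within the 0.86 to 1.08 of the other arrays. The part of NVP 3 in these signs was not tested. In the red channel alone Cort had -1.04 and Tac1 -0.71. Scg2 (-0.21, adjusted p = 0.051), Cck (0.08) and Sst (-0.07) had no called slope in the ratio, while in the red channel alone Scg2 (-0.19) and Cck (0.54) were called (adjusted p = 0.0023 and 3.72e-06).

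**Figure D4:**
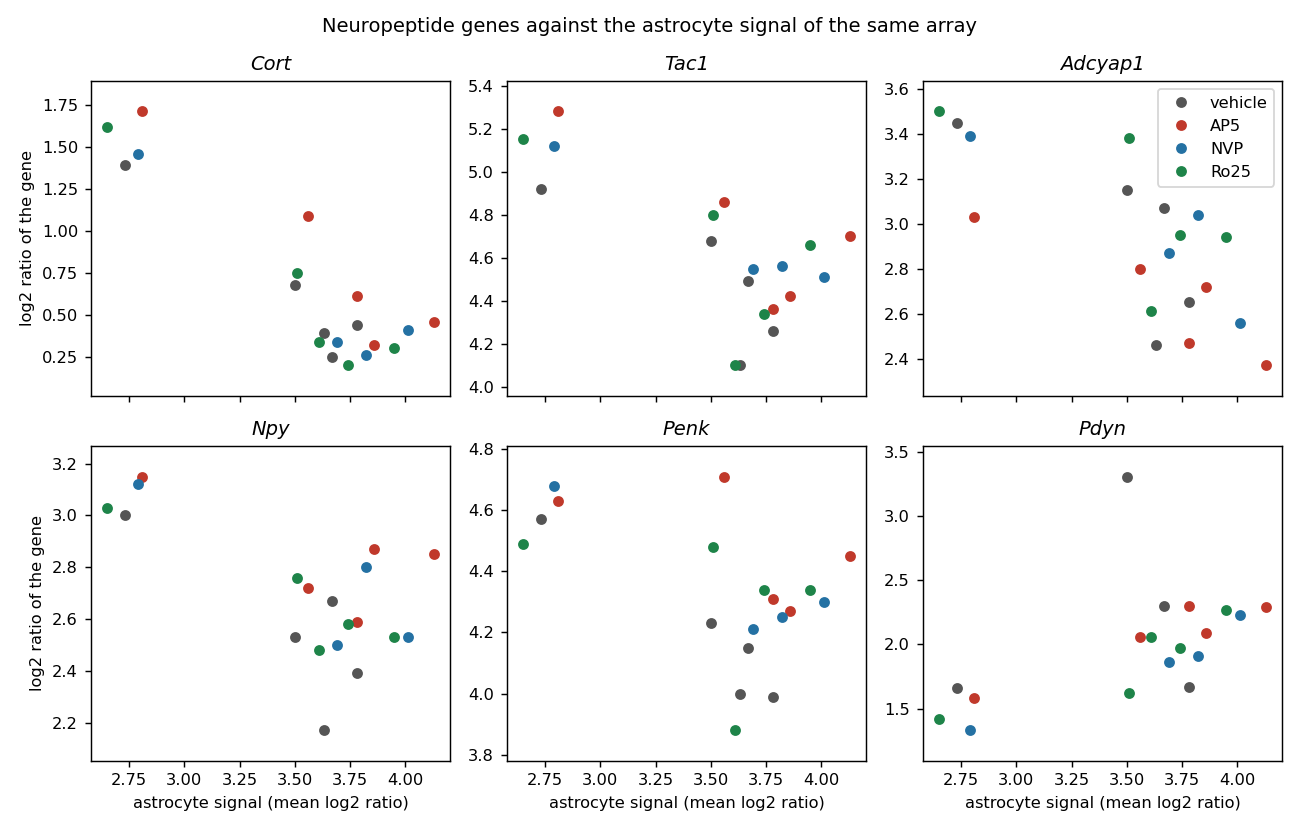
Log2 ratio of 6 of the genes (vertical axes, which differ between panels) against the astrocyte signal of the same array (horizontal axis, mean log2 ratio of 17 markers); each point is 1 array, coloured by treatment. The 4 arrays at 2.65 to 2.81 stand apart from the other 15, and on them Cort is at 1.39 to 1.71. With log ratios brought to 1 spread, which multiplies NVP 3 by 1.5, the slopes of Tac1, Adcyap1, Npy and Penk turn positive. In that fit the astrocyte signal is scaled by the same factors, so these signs cannot decide the direction.

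Likeness between genes over the 19 arrays was taken after removing group means and is given only as a description. For genes that differed on the arrays low in astrocyte signal, such as Cort and Tac1, it includes that split. Cck and Sst had no called slope on this signal. The genes nearest to Cort were Glce (Pearson's r 0.991) and Myo18b (0.987), to Tac1 Asns (0.976) and C230098O21Rik (0.964), and to Adcyap1 Necab1 (0.944) and 1500035N22Rik (0.943). Nearest to Npy were Arhgap36 (0.941) and Vwa3b (0.94), and to Penk Tuft1 and Cfap52 (both 0.939). They were Lrrn3 (0.941) and Mas1 (0.934) for Scg2, Icam5 (0.927) and Slc24a2 (0.92) for Sst, and for Cck a probe without a gene name (0.852) and one named AK079403 (0.845). Nearest to Vip were 1110059E24Rik (0.926) and Grin2c (0.907). Pdyn, with a missing value, was left out.

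With AP5 the receptors of these peptides changed in both directions. Of 22 listed receptor genes 14 were measured, and 5 were called higher and 3 lower, beside 10.8% and 7.18% of all genes. Npy1r, the Y1 receptor of neuropeptide Y, had 1.65 to 1.98 on AP5 arrays and 2.22 to 2.80 on vehicle arrays, without overlap (log2 fold change -0.69, SE 0.11, adjusted p = 0.000298). Npy5r, the Y5 receptor, fell by 0.39 (adjusted p = 0.00131). Cckbr, the main cholecystokinin receptor of the brain, ran from 2.57 to 2.73 with AP5 and from 2.96 to 3.69 with vehicle (-0.57, SE 0.12, adjusted p = 0.00264). It was singled out after its values were seen, and the ratio of the extraction software gave 0.37 for it instead (adjusted p = 0.0525). A second Cckbr probe gave -0.34. Oprl1, the nociceptin receptor, ran from 4.99 to 5.30 with AP5 and from 3.96 to 4.58 with vehicle, without overlap (0.88, SE 0.10, adjusted p = 7.91e-06), although its second probe gave 0.36.

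The red channel taken alone gave calls for some of these receptors and not for others. In the red channel alone Npy1r had -0.91, Cckbr -1.40 and Oprl1 0.73, all 3 called (adjusted p = 1.09e-05, 1.04e-06 and 3.98e-06), while Npy5r had -0.22 (adjusted p = 0.16). The green signal of the reference RNA was also lower for the Cckbr probe, by -0.47 (limma adjusted p = 0.000115). For Npy5r it was higher by 0.14 (adjusted p = 0.0198), and for Npy1r and Oprl1 it differed by 0.07 and 0.08 without a call. Under the fixed slide block the sizes were -0.45, -0.83, 0.95 and -0.43 for Npy1r, Cckbr, Oprl1 and Npy5r, but none of the 4 passed (adjusted p = 0.661, 0.489, 0.383 and 0.459). The other receptors called higher were Npy2r (0.83), Adcyap1r1 (0.43), Sstr1 (0.28) and Sstr4 (0.25), named after their values were seen. The first 3 of them turned negative under the fixed slide block, and Sstr4 was lower in the red channel alone (-0.70, adjusted p = 0.016).

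Among 13 processing genes, all measured, 3 were called higher and 1 lower with AP5, beside 10.8% and 7.18% of all genes. Furin, a convertase of the secretory pathway, ran from -0.69 to -0.43 on AP5 arrays and from -0.10 to 0.07 on vehicle arrays, and its log2 fold change was -0.56 (SE 0.06, adjusted p = 2.61e-06). The red channel alone gave -0.55 (adjusted p = 1.41e-05), and the fixed slide block gave -0.53 without a call (adjusted p = 0.36). Pcsk5, another convertase, ran from 2.78 to 3.60 with AP5 and from 1.93 to 2.86 with vehicle, with 1 vehicle array dropped (0.82, SE 0.18, adjusted p = 0.00435), and its second probe gave 0.58. The other two called higher were Pcsk1n (0.49) and Pcsk2 (0.35), an inhibitor of prohormone convertase and a neuropeptide convertase, and Pcsk2 was named after its values were seen. Pcsk2 had -0.11 and Pcsk1n 0.01 in the red channel alone.

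Granins were called higher in 4 of 5 measured members of a list of 6, with a median log2 fold change of 0.49, beside 10.8% of all genes and 39.4% of those with a mean log2 ratio over 3, where Scg3, Chgb and Pcsk1n lie. They were Scg3 (0.56, SE 0.07, adjusted p = 4.47e-05), Chgb (0.53, SE 0.11, adjusted p = 0.00277), Pcsk1n, which is on the processing list too (adjusted p = 0.00273), and Chga (0.32, adjusted p = 0.00721, named after its values were seen). As for Scg2, these rises were in the ratio: the red channel alone gave -0.13 for Scg3, -0.11 for Chgb, 0.01 for Pcsk1n and 0.08 for Chga, and their green signals included differences of -0.50 for Scg3 and -0.54 for Chgb (adjusted p = 0.0359 and 0.00382). Under the fixed slide block Scg3 had -0.08 and Pcsk1n -0.18.

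Of 24 other neuropeptide genes measured from a list of 32, 3 were called higher and 2 lower, shares near the 10.8% and 7.18% of all genes. Nppc, which encodes C-type natriuretic peptide, had a log2 fold change of 0.78 (SE 0.23, adjusted p = 0.0228) and Calca, the gene of calcitonin and CGRP, of 0.48 (SE 0.12, adjusted p = 0.00957). A second Calca probe gave 0.31. Adm, the adrenomedullin precursor, fell by 0.50 (adjusted p = 0.0311). Pthlh at -0.71 and Pomc at 0.20 were the remaining ones, named after their values were seen. Of 17 genes of the dense-core vesicle machinery 1 was called, Ccdc186, a sorting factor of these vesicles, at 0.32 (SE 0.07, adjusted p = 0.00482) and at 0.53 in the red channel alone. A second Ccdc186 probe gave 0.14 in the ratio. For NVP and Ro25 limma called 0 of the 71 genes of these 5 lists. An unadjusted p under 0.05 was found for 8 of the 71 with NVP and 7 with Ro25, beside 8.36% and 6.14% of all genes.

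**Figure D5:**
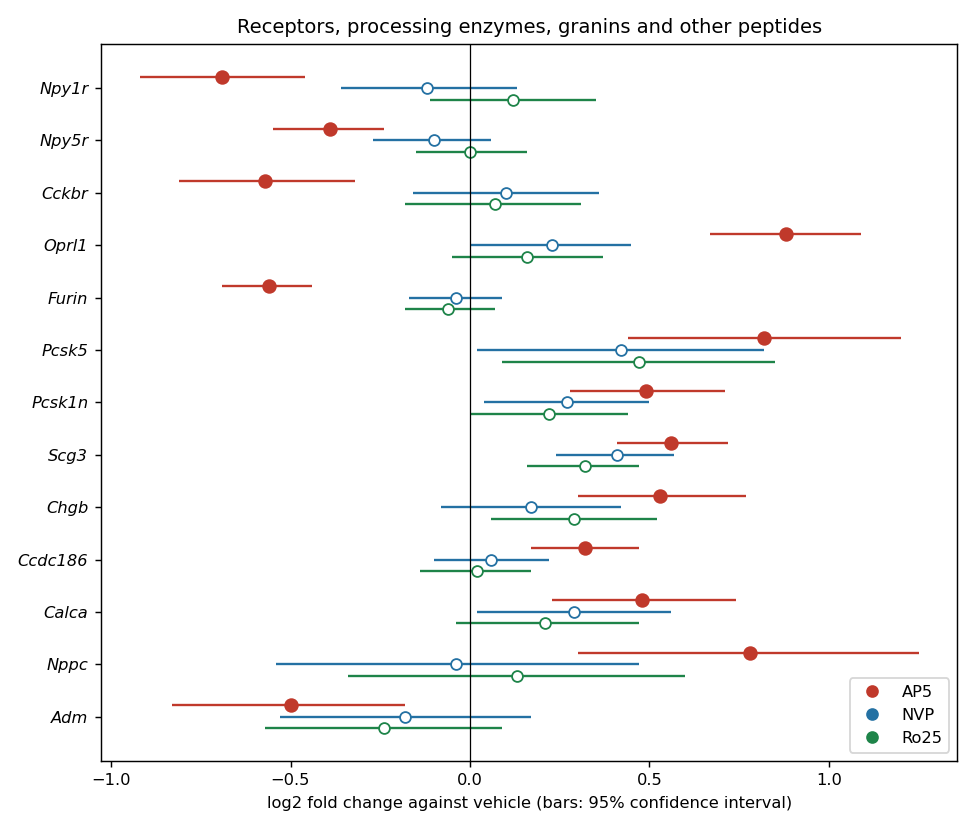
Log2 fold change against vehicle (horizontal axis) of receptor, processing, granin and other peptide genes for AP5, NVP and Ro25, with 95% confidence intervals; filled points have an adjusted p under 0.05. With AP5, Npy1r, Npy5r, Cckbr, Furin and Adm lie below 0 and Oprl1 lies highest at 0.88, and no point of NVP or Ro25 is filled; Cckbr is at 0.37 in the ratio of the extraction software, and Scg3, Chgb and Calca turn negative in the red channel alone.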

How the data were processed

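RNA of cultured neurons was measured on 19 two-colour Agilent mouse arrays, with neuron RNA in red and a universal mouse reference in green. Per the file headers, Feature Extraction 9.5.3.1 gave the deposited intensity of each spot, its local background, its flags and a log10 ratio of red over green, whereas version 11.0 of Agilent Feature Extraction stands in the submitters' processing notes. The authors' deposited value table holds log2 values for 20674 probes, which correlated at 0.9986 to 0.9998 with the ratios computed here; its centring is not given in the sources used here. Its column medians are 0.0345 to 0.0478. Probe positions in the files are on mm8.

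From the mean intensities, marked spots were left out (117 to 266 per array, 1642 on vehicle 5), background was corrected by normexp with an offset of 50, and log2 ratios were normalized by loess within arrays. Probes with red well above background on at least 4 arrays were kept (28638), and the brightest kept probe stood for its gene (19197 genes). The channels taken alone were normexp-corrected and quantile-normalized. Groups were compared in 1 linear model over all 19 arrays with limma 3.58.1 in R 4.3.3 (with statmod 1.5.0, and data.table at version 1.17.8); p-values are two-sided and adjusted by Benjamini-Hochberg over all genes, with a threshold of 0.05, and printed adjusted p-values with group sizes are from this model. The astrocyte slope was a covariate in that model. The number of arrays limits the precision, with a median standard error of 0.08 for a log2 fold change against vehicle.

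The members, the gene lists and the tests were chosen with earlier results of these data known, so no list is independent evidence. Named genes are the members, up to 3 called genes with the smallest p from each list, the 2 genes most like each member over arrays, and Bdnf; others are marked where they appear. Start regions were searched in Python 3.11.15 with pandas 2.3.3 and matplotlib 3.10.9 used for the figures. Alternatives changed the normalization, background correction, dim-probe filter, choice of probe, blocks for slide or replicate number, the samples in the fit, the astrocyte covariate, and left out each array in turn.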

Additional observations from a re-analysis of the deposited data

Results flagged for a closer look

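Within each treatment, the distance of the outermost array to its neighbour was set against the whole range of the group, for 40 combinations of gene and group, with 1 probe per gene. Of the 40, 3 were beyond the 95% limit, which chance alone passes in about 1 in 20. The first was Cort on NVP 4, at a log2 ratio of 1.46 against 0.26 to 0.41 on the other 3 NVP arrays. Tac1 also stood out on NVP 4, at 5.12 against 4.51 to 4.56. NVP 4 is 1 of the 4 arrays lowest in astrocyte signal, at 2.79. Penk stood out on Ro25 2, at 3.88 against 4.34 to 4.49 on the other Ro25 arrays.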

How the results depend on the processing

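Over the alternatives run, the AP5 count of 3 called genes moved to 5 with the software's ratio. In the red channel it moved to 1, beside 10.9% of all genes. It moved to 6 with the astrocyte covariate, where the share of all genes was not counted. It was 0 with ratios of 1 spread, with normexp on all spots and with a fixed block for slide. The cause of these moves was not tested. The slope count of 7 moved to 2 with the software's ratio, 4 with normexp on all spots and 4 without the 2 arrays farthest from the median. It was 0, beside 8.3% of all genes, without the 4 arrays lowest in astrocyte signal, an alternative chosen after seeing the data. AP5 against Ro25 gave 1 in the red channel, 1 with slide as a random block, 2 with the covariate and 1 without those 4 arrays. Leaving out 1 array at a time gave 0 to 1 in AP5 against NVP and against Ro25. For all other counts in this paragraph the share of all genes called was not counted, so they cannot be set beside it. With the replicate block the AP5 count was 2 and the slope count 6, and Adcyap1 with NVP turned to -0.01. Same-numbered arrays correlated at -0.624 to 0.766 in their deviations, over 0.1 in 8 of 27 pairs. The 0.766 was between Ro25 3 and vehicle 3, both among the 4 arrays lowest in astrocyte signal. These correlations cannot settle whether same-numbered arrays shared a culture or batch.

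The following turned sign. Red channel, AP5: Scg2 -0.26, Cck -0.20, Sst -0.29, Cort -0.14, Npy -0.02, Tac1 -0.15, Pdyn 0.04, Vip -0.01, Scg3 -0.13, Chgb -0.11, Calca -0.13, Pcsk2 -0.11 and Sstr4 -0.70. Red channel, NVP: Scg2 -0.07, Cck -0.08, Sst -0.05 and Adcyap1 -0.37. Red channel, Ro25: Scg2 -0.04, Cck -0.12, Sst -0.10 and Adcyap1 -0.06; the slope of Sst was 0.06. Software's ratio, AP5: Adcyap1 0.53, Vip -0.10 and Cckbr 0.37. Ratios of 1 spread, slopes on an astrocyte signal scaled the same way: Scg2 0.57, Sst 0.49, Npy 0.19, Tac1 0.44, Penk 0.52 and Adcyap1 0.10, and Adcyap1 with Ro25 -0.02. Normexp on all spots, slopes: Scg2 0.47, Sst 0.10, Npy 0.27, Tac1 0.24, Penk 0.44 and Adcyap1 0.22; Tac1 with AP5 -0.03, and with Ro25 Scg2 -0.38 and Adcyap1 -0.40. No background correction: Vip with AP5 -0.03 and Adcyap1 with NVP -0.06. Slide as a fixed block, AP5: Cck -0.23, Adcyap1 0.06, Pcsk1n -0.18, Scg3 -0.08, Sstr1 -0.06, Npy2r -0.90, Adcyap1r1 -0.48 and Pomc -0.07; NVP: Scg2 -0.17, Cck -0.10, Sst -0.03 and Adcyap1 -0.17; Ro25: Scg2 -0.13 and Adcyap1 -0.13; the slope of Cck was -0.07. Without the 4 arrays, the slopes of Cck (-0.14) and Npy (0.01) and Adcyap1 with NVP (-0.01) turned. With 1 array left out, Cort with AP5 ran from -0.01 to 0.39, Pdyn from -0.37 to 0.19, Vip from -0.01 to 0.12, Adcyap1 with NVP from -0.13 to 0.14, and the slope of Cck from -0.01 to 0.13. Vip, Pdyn with vehicle and the second probes of Cck and Penk are limited by signals near background.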

Other observations

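The probe position that the files give for Vip lies on the minus strand of mm8, whereas RefSeq places the gene on the plus strand of GRCm38.p6. For the other 8 genes with a RefSeq start both strands were the same. The builds differ, so the orientation of the Vip probe was not settled here.

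Oligodendrocyte-lineage markers followed the astrocyte signal too: 10 of 15 had a called positive slope and 0 a negative one. Among the other neuropeptide genes, 9 of 24 had a called negative slope and 4 a positive one, beside 18.1% and 16.2% of all genes. These slopes share the same 4 arrays.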
